A study of Mus musculus with 9 samples.

Results

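A set of 10 nuclear genes of mitochondrial dynamics, protein import and mitochondrial DNA (mtDNA) upkeep was followed in mature mouse eggs. The set holds Mfn1, Mfn2, Opa1 and Dnm1l for fusion and fission, Timm23, Tomm20, Tomm40 and Samm50 for import, and Tfam and Polg for mtDNA. They were taken by gene name as 10 of the 30153 genes in the deposited tables, and they were chosen on their names and on the counts and CPM (counts scaled to library size) seen in all 9 libraries. Because the set was drawn up with these values known, every level, fold change and p-value of the 10 genes is a description of these libraries and supports nothing further.

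Mitochondria fuse and divide continuously. Outer membranes are joined by the mitofusins Mfn1 and Mfn2, inner membranes are joined by Opa1, and Drp1, the product of Dnm1l, constricts the organelle for division. Most mitochondrial proteins are made in the cytosol and enter through the TOM channel, from which the SAM complex takes outer membrane barrel proteins and the TIM23 channel takes proteins bound for the matrix. The egg supplies essentially all mitochondria and mtDNA of the embryo and carries stored transcripts made during oocyte growth. Tfam packages mtDNA and is needed for its transcription, and Polg is the polymerase that copies it.

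The libraries came from metaphase II (MII) oocytes of females carrying Sycp3CreERT2/+, in which the locus of the meiotic gene Sycp3 drives a tamoxifen-inducible Cre, together with Rosa26nT-nG/+, a reporter that switches from nuclear tdTomato to nuclear GFP once Cre has acted. All donors, on a mixed genetic background and aged 4 weeks, had this genotype and received 5 IU of PMSG and, 48 h later, 5 IU of hCG. Oocytes were collected 13 h after hCG, cleared of cumulus cells by hyaluronidase, and sorted manually by their fluorescence. The 3 groups, GFP High, GFP Low and RFP, thus differ by reporter fluorescence, with 3 libraries each of pooled oocytes. A pool held 15 to 16 oocytes for GFP High, 49 to 57 for GFP Low and 87 to 100 for RFP, so fluorescence and pool size cannot be told apart. No tamoxifen treatment or genotype control without Cre was analysed here, and nothing in the labels says that pools of one group came from separate animals, so p-values measure only the spread between these pools.

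Library totals ran from 19381677 to 27746256 counts. The cell type label was checked on 12 oocyte markers, all of which were at 1 CPM or more in each library, with a summed level of 12020.2 to 13453 CPM across GFP High, 11410.5 to 12176 across GFP Low and 11560.4 to 11986 across RFP. All 15 cumulus and granulosa markers were in the tables, and their summed level was 109.7 to 209.7, 143 to 155 and 133 to 198 CPM in the same order. Of these, Nr5a2 and Cyp19a1 were left out after their values were seen, and the other 13 summed to 34.4, 2.07 and 6.98 CPM in GFP High 1, 2 and 3, to 36.4, 4.18 and 9.97 across GFP Low 1, 2 and 3, and to 16.0, 54.3 and 4.45 in RFP 1, 2 and 3. Those left out stood at 100.8 to 157 CPM for Nr5a2 and 6.85 to 18.1 for Cyp19a1. Of the 13, Amh was at 0 in 8 of 9 libraries, Inha in 5, Inhbb and Foxl2 in 4, Ptx3 in 3, Fshr, Cyp11a1, Has2 and Tnfaip6 in 2, Inhba, Ptgs2 and Hsd3b1 in 1 and Star in 0. The highest single value among them was 10.9 CPM, for Tnfaip6 in RFP 2. Of 9 blood, immune and oviduct markers, 4 were in the tables, summing to 1.05 to 2.97 CPM. Transcripts of eGFP stood at 35.8 to 43.8 CPM in the pools picked as GFP High, at 14.5 to 23.9 in GFP Low and at 0 to 0.594 in RFP. Bulk RNA from pools cannot tell fewer cells of a type from less RNA per cell.

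All 10 are protein-coding genes, and the positions in the deposited tables equal those of GENCODE M21 on GRCm38. The fusion and fission genes are Mfn1 (ENSMUSG00000027668) at chr3:32529465-32579239 (plus), Mfn2 (ENSMUSG00000029020) at chr4:147873599-147904704 (minus), Opa1 (ENSMUSG00000038084) at chr16:29579334-29654884 (plus) and Dnm1l (ENSMUSG00000022789) at chr16:16312230-16358959 (minus). The import genes are Timm23 (ENSMUSG00000013701) at chr14:32180162-32201898 (minus), Tomm20 (ENSMUSG00000093904) at chr8:126930667-126945844 (minus), Tomm40 (ENSMUSG00000002984) at chr7:19701313-19715438 (minus) and Samm50 (ENSMUSG00000022437) at chr15:84192241-84217267 (plus). The mtDNA genes are Tfam (ENSMUSG00000003923) at chr10:71225464-71238280 (minus) and Polg (ENSMUSG00000039176) at chr7:79446231-79466362 (minus). These spans include introns.

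Between genes, levels were compared in the authors' FPKM, which divide by gene length, here all annotated exonic bases of the gene. For Tomm40 this length was 4513 bases, and its longest protein-coding transcript had 1646. For Tfam the 2 lengths were 4438 and 4167 bases. The order below, and ratios of FPKM between genes, depend on which length is used. Timm23 stood highest of the 10, with a mean of 57.9 FPKM over 9 libraries and rank 942 of 30153 genes. Dnm1l (21.5 FPKM, rank 2534) and Mfn1 (20.5 FPKM, rank 2618) followed, then Opa1 (10.6 FPKM, rank 4178) and Mfn2 (9.61 FPKM, rank 4418), then Tfam (5.93 FPKM, rank 5745) and Tomm40 (4.71 FPKM, rank 6438). Tomm20 (1.51 FPKM, rank 9574), Polg (1.503 FPKM, rank 9587) and Samm50 (1.47 FPKM, rank 9643) were lowest. Within this order, 5 neighbouring pairs did not separate beyond their spread. Dnm1l was above Mfn1 in 7 of 9 libraries and Opa1 above Mfn2 in 7 of 9, while Tfam exceeded Tomm40 in 8 of 9, Tomm20 exceeded Polg in 3 of 9, and Polg exceeded Samm50 in 6 of 9. The other neighbours in the order were on the same side in 9 of 9 libraries.

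**Figure D1:**
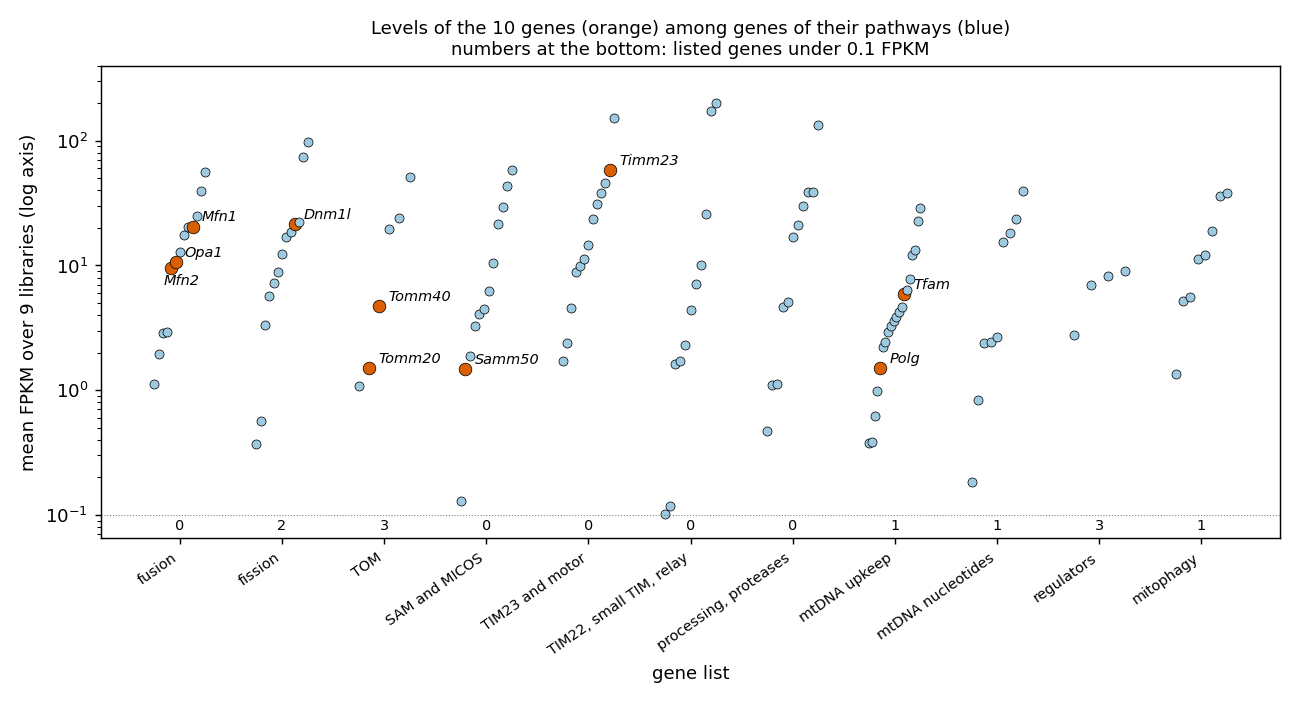
Mean FPKM over 9 libraries on a log axis for the genes of 11 mitochondrial lists, each dot a gene, the 10 described genes in orange. Timm23 lies near the top of the TIM23 list at 57.9 FPKM, while Tomm20 (1.51), Samm50 (1.47) and Polg (1.503) lie low in theirs.

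The groups were compared gene by gene with edgeR's quasi-likelihood test, and a gene is called where its Benjamini-Hochberg adjusted p, over all genes tested, is under 0.05. In the whole tables, 2 of 14829 genes (0.0135%) were called in GFP High against RFP, 3 of 15199 (0.0197%) in GFP Low against RFP, and between GFP High and GFP Low 0 of 14785 (0.0%). For that last comparison, DESeq2 called 4, limma-voom called 0 and 558 genes (3.77%) had an unadjusted edgeR p under 0.05. The edgeR calls against RFP include the reporter eGFP, by whose fluorescence the oocytes were sorted. Its edgeR adjusted p was 0.00727 for GFP High and 0.000716 for GFP Low, and the sorting fixed this difference in advance. All 10 mitochondrial genes were tested each time, and edgeR, DESeq2 and limma-voom each called 0 of them. An unadjusted edgeR p under 0.05 was met by 1 of the 10 in GFP High against RFP, where 4.09% of all genes met it, by 0 in GFP Low against RFP (2.62%) and by 1 between GFP High and GFP Low (3.77%), in both cases Samm50. Groups did not overlap for 1 of the 10 against 12.1% of all genes, 1 against 7.72% and 3 against 11.7%, in the same order. Samm50 made up the single genes, and the 3 were Mfn2, Opa1 and Samm50.

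The transcripts for fusion and fission were among the most precisely measured. Mfn1 was at 101, 134 and 124 CPM across GFP High 1, 2 and 3, at 139, 119 and 130.3 across the GFP Low pools and at 122, 124 and 145 across the RFP pools. These ranges overlap, with GFP High 1 the lowest of all. Mfn2 was at 63.9, 52.8 and 49.8 CPM across GFP High, 42.4, 48.2 and 48.6 across GFP Low and 49.1, 43.7 and 55.4 across RFP. All 3 GFP High libraries lay above all 3 GFP Low libraries for Mfn2. Opa1, with 83.0, 64.7 and 79.7 CPM across GFP High against 85.5, 93.5 and 88.5 across GFP Low and 91.4, 81.7 and 93.5 across RFP, showed the opposite order, GFP High lying below GFP Low throughout. For Dnm1l the values were 104, 95.9 and 117 CPM across GFP High, 114, 113 and 123 across GFP Low and 119, 108 and 124 across RFP. Its groups overlapped in all comparisons.

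Of these 4 genes, the widest contrast was for Mfn2 in GFP High over GFP Low, a log2 fold change of 0.27 (standard error 0.15, 95% interval -0.06 to 0.60, edgeR adjusted p = 0.998). Opa1 gave -0.22 for GFP High over GFP Low (standard error 0.13, interval -0.51 to 0.06) and -0.21 over RFP (standard error 0.13, interval -0.51 to 0.09). Between GFP Low and RFP the estimates were within 0.01 of 0 for Mfn1 (-0.01), Opa1 (0.01) and Dnm1l (0.001), with standard errors of 0.10, 0.10 and 0.09. Mfn2 gave -0.09 there (standard error 0.12). For Dnm1l that comparison's interval ran from -0.20 to 0.20, and for Mfn1 from -0.22 to 0.21. None of the 4 was called in any comparison.

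The mitofusin balance was read as a ratio of FPKM within each library, with no test. Mfn1 over Mfn2 was 1.34, 2.15 and 2.12 across GFP High 1, 2 and 3 and 2.78, 2.10 and 2.28 across GFP Low 1, 2 and 3 and 2.12, 2.41 and 2.22 across RFP 1, 2 and 3. The value was lowest in GFP High 1 and highest in GFP Low 1. Dnm1l over its outer membrane receptor Mff, a gene named after its values were seen, lay between 0.789 in GFP High 2 and 1.046 in RFP 1.

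**Figure D2:**
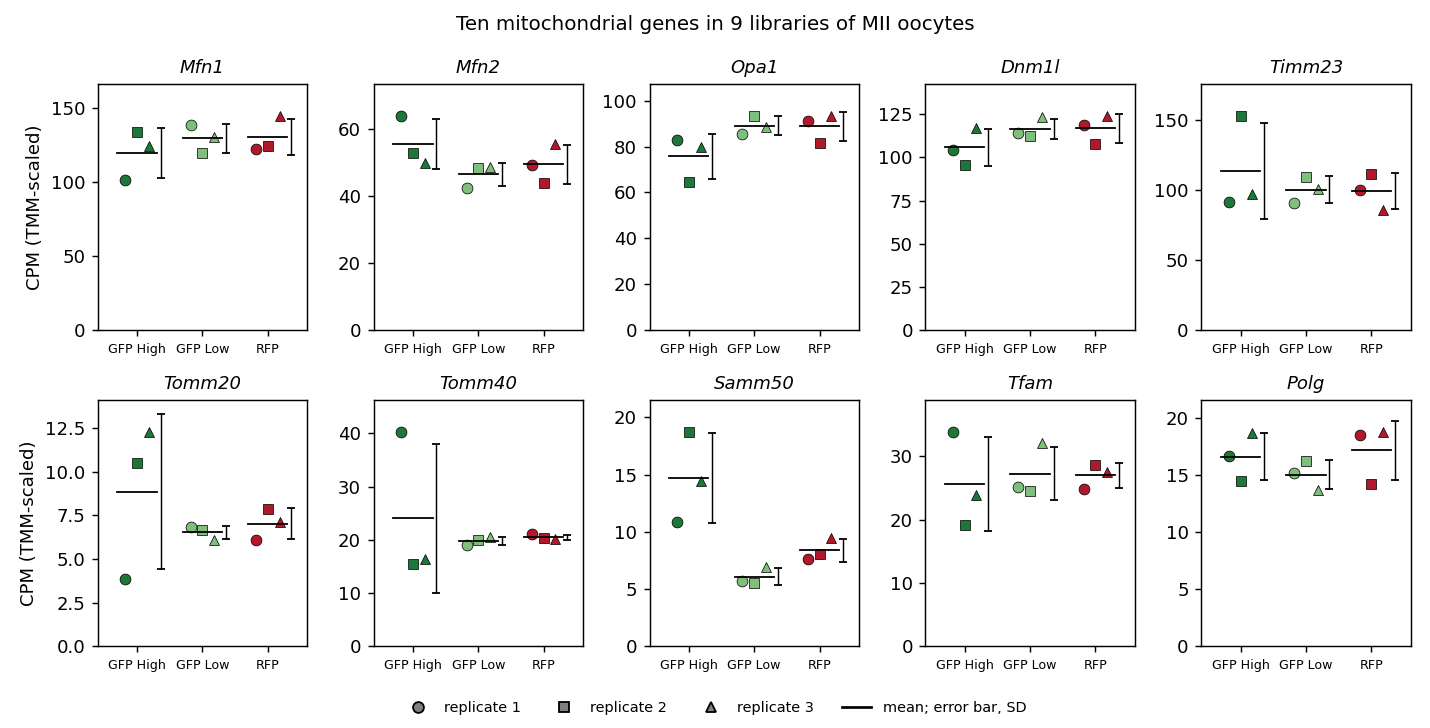
CPM (scaled by TMM) of the 10 genes in each library, with a panel per gene, group on the horizontal axis, symbols for replicates 1 to 3, a line for the mean and an error bar for the SD. Samm50 shows 3 separate groups, while Tomm20 and Tomm40 have GFP High libraries on both sides of the other groups.

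Among the import genes, Timm23, the channel subunit of the inner membrane translocase, was the most abundant. It stood at 91.3, 153 and 96.8 CPM across GFP High 1, 2 and 3, at 90.4, 109 and 101 across the GFP Low pools and at 100.2, 111 and 85.9 across the RFP pools. GFP High 2 was the highest, 1.53 times the median of 100.2 CPM, and the groups overlapped. The fitted log2 difference of GFP High over RFP was 0.21 (standard error 0.20), and without GFP High 2 it was -0.07. Against GFP Low it was 0.19 (standard error 0.18), and without GFP High 2 it was -0.09.

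Reads of Timm23 can match other genes, which limits how its counts are read. Of its 100-base windows, 85.85% occur in transcripts of another gene, and it has 5 near-identical copies at 95% identity over 300 bases or more, 4 of them in the tables. Those 4, Gm10273, Gm10233, Gm10171 and Gm16209, carried together 4.42% to 6.57% as many counts as Timm23 in a library. Bases 466 to 525 of its 627-base coding sequence are shown. Of the stretches of that length searched, this one held the most differences from the copies. A capital marks each base where a copy differs from Timm23. The matching sequence in 3 copies has 0 differences over 627 bases, while Gm16209 has 11, 5 of them in this stretch.
Timm23: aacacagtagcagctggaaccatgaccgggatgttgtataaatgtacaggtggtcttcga
Gm10273: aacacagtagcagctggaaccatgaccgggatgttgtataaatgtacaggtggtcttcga
Gm10233: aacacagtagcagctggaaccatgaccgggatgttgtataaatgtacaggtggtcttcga
Gm10171: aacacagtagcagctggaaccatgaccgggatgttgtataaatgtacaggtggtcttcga
Gm16209: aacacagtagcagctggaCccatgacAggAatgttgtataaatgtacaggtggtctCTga
The submitters' processing notes name HISAT2 and featureCounts, and how either treated reads with several matches is not given in the sources used here, so the Timm23 level is uncertain.

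Tomm20, the receptor that recognises matrix presequences, was at 3.85, 10.5 and 12.3 CPM across GFP High 1, 2 and 3, at 6.83, 6.68 and 6.10 across the GFP Low pools and at 6.12, 7.86 and 7.13 across the RFP pools. GFP High 1 was the lowest of the 9 libraries and GFP High 2 and 3 were the highest. Tomm40, the TOM channel itself, was at 40.2, 15.5 and 16.5 CPM across GFP High, 19.0, 19.9 and 20.4 across GFP Low and 21.1, 20.3 and 20.1 across RFP. Here GFP High 1 was 2.00 times the median of 20.1 CPM, and GFP High 2 and 3 were the lowest. The fitted log2 difference of Tomm40 in GFP High over RFP was 0.25 (standard error 0.34) with all libraries and -0.35 without GFP High 1. Over GFP Low it was 0.29 (standard error 0.34), and -0.30 without that library. The GFP High mean of Tomm40 was 24.1 CPM, and 16.0 without GFP High 1. Tomm20 gave 0.35 over RFP (standard error 0.42) and 0.45 over GFP Low (standard error 0.43), both of which moved with 1 library. The difference over RFP was 0.03 without GFP High 3 and 0.70 without GFP High 1, and that over GFP Low was 0.14 and 0.80. In FPKM, Tomm40 over Tomm20 was 11.3 in GFP High 1 and between 1.46 and 3.74 in the other libraries.

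Within GFP High, the sum of the 13 cumulus markers was highest in the library with high Tomm40, at 34.4 CPM in GFP High 1. That sum was higher in GFP Low 1 (36.4) and RFP 2 (54.3). In those 2 libraries Tomm40 was at 19.0 and 20.3 CPM and Tomm20 at 6.83 and 7.86 CPM. With Nr5a2 and Cyp19a1 included, the sum of all 15 was highest of all libraries in GFP High 1, at 209.7 CPM. It was 152.3 CPM in GFP Low 1 and 198.3 CPM in RFP 2. Whether either marker sum and these 2 genes are related was not tested. Gm20512, on the strand opposite Tomm40 with 258 shared exonic bases, had 0 to 17 counts per library. Whether counting used strand is not given in the sources used here, and Tomm40 and Gm20512 reads may not be told apart there. Tomm20 has 4 copies, of which Gm14494 (15 to 71 counts) and Gm7748 (0 to 7 counts) were in the tables.

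Samm50, the barrel-inserting core of the SAM complex, was the gene whose groups stood apart most. It was at 10.9, 18.7 and 14.5 CPM across GFP High 1, 2 and 3, at 5.75, 5.56 and 6.93 across the GFP Low pools and at 7.60, 8.04 and 9.50 across the RFP pools. Every GFP High library was above every RFP library, and every RFP library above every GFP Low library. The means were 14.7 ± 3.92, 6.08 ± 0.743 and 8.38 ± 0.996 CPM (SD, n = 3 each). GFP High over GFP Low came to a log2 fold change of 1.28, or 2.42-fold (standard error 0.30, 95% interval 0.61 to 1.94). By p-value this ranked 10 of 14785 genes, and the edgeR adjusted p was 0.998, so it was not called. Over RFP it was 0.82 (standard error 0.28, interval 0.19 to 1.46, edgeR adjusted p = 0.997). GFP Low over RFP was -0.46 (standard error 0.22, interval -0.93 to 0.02, edgeR adjusted p = 1.00).

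Because these groups do not overlap, leaving out a library could not turn the sign of the GFP High over GFP Low difference. Its size ran from 1.06 without GFP High 2 to 1.45 without GFP High 1, and over 14 alternatives the adjusted p ran from 0.0934 to 1.00. In the authors' deposited table the lowest adjusted p of any of the 10 genes for that pair was 0.0933, for Samm50. Its counts lay between 112 and 461 per library. Gm49513, on the same strand with 111 shared exonic bases, had 0 to 71 counts.

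Of the mtDNA genes, Tfam was at 33.7, 19.2 and 23.8 CPM across GFP High 1, 2 and 3, at 25.1, 24.6 and 32.1 across the GFP Low pools and at 24.8, 28.6 and 27.5 across the RFP pools. The groups overlapped, with the highest and the lowest value both in GFP High. Polg was at 16.7, 14.6 and 18.8 CPM across GFP High, 15.2, 16.3 and 13.7 across GFP Low and 18.6, 14.2 and 18.8 across RFP. Here too the groups overlapped. Fitted differences for Tfam lay between -0.08 and 0.02 and for Polg between -0.19 and 0.15 over the 3 comparisons. Polg overlaps Fanci on the opposite strand over 921 exonic bases, and Fanci had 1103 to 1824 counts per library against 296 to 506 for Polg. In FPKM, Tfam was above Polg in 9 of 9 libraries, by 3.07 to 5.66 times. Twnk, the helicase of mtDNA replication and a gene named after its values were seen, stood 5.19 to 9.85 times above Polg.

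**Figure D3:**
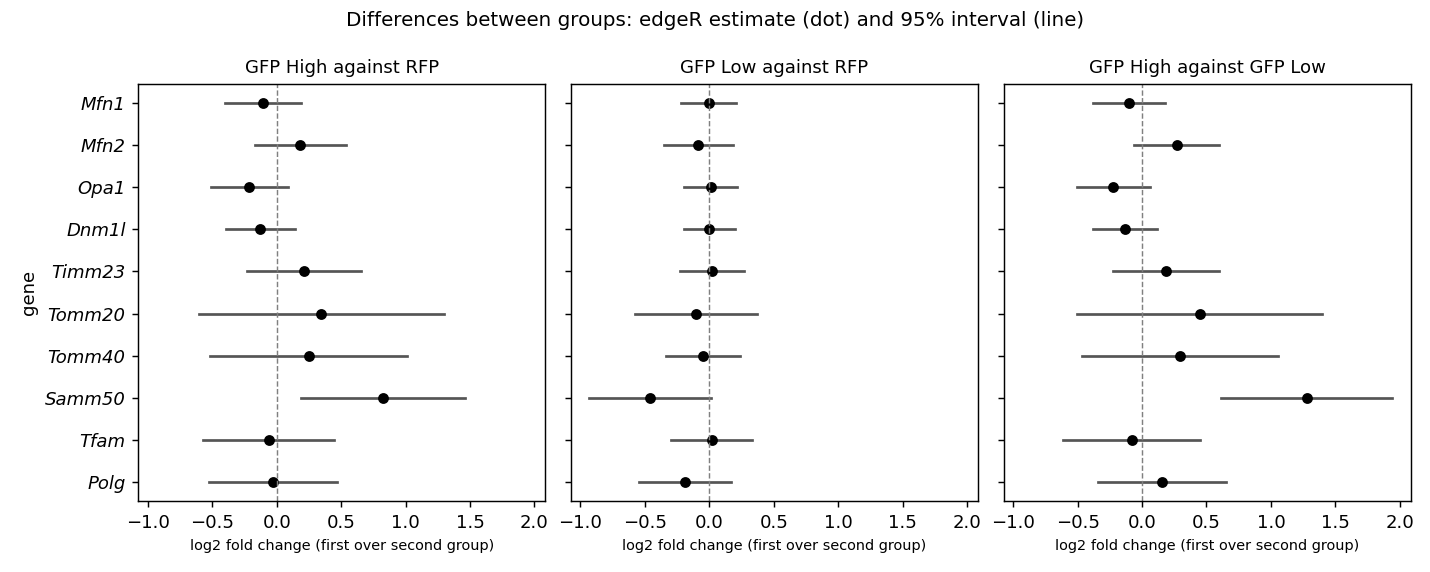
Fitted log2 fold changes of the 10 genes (dot) with their 95% intervals (line), a panel per comparison, with a dashed line at 0. Intervals are narrowest in GFP Low against RFP, and Samm50 alone has an interval that excludes 0 in the 2 comparisons with GFP High.

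The median log2 difference of the 10 genes was 0.08 in GFP High against RFP, -0.03 in GFP Low against RFP and 0.17 between GFP High and GFP Low, beside -0.01, -0.004 and -0.005 over all genes tested. Estimates were positive for 5, 4 and 6 of the 10 and negative for the rest. The whole 95% interval lay between -1 and 1 on the log2 scale for 7, 10 and 7 of the 10. Summed over the 10 genes, the level was 560.4 ± 16.1 CPM for GFP High, 556.6 ± 14.2 for GFP Low and 564.8 ± 19.8 for RFP (SD, n = 3). Mfn1, Dnm1l and Timm23, with means of 126, 113 and 104 CPM over 9 libraries, weigh most in this sum. It says little about genes of low level such as Tomm20 and Samm50, with means of 7.48 and 9.71 CPM.

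Replicates of GFP High were more spread than those of the other groups for these genes as for others. The median coefficient of variation of the 10 was 20.4% for GFP High, 7.47% for GFP Low and 10.7% for RFP, beside 19.6%, 10.5% and 11.03% over the 8130 genes at 5 to 200 CPM. It was larger in GFP High than in GFP Low for 10 of 10, beside 77.5% of those genes, and larger than in RFP for 9 of 10, beside 75.8%. Tomm40 (58.1%) and Tomm20 (50.01%) had the largest in GFP High, and Dnm1l (10.1%) the smallest. The library farthest from the median of the 9 was a GFP High library for 9 of the 10 genes, and for Polg it was GFP Low 3. GFP High pools also held the fewest oocytes, and these cannot be told apart.

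**Figure D4:**
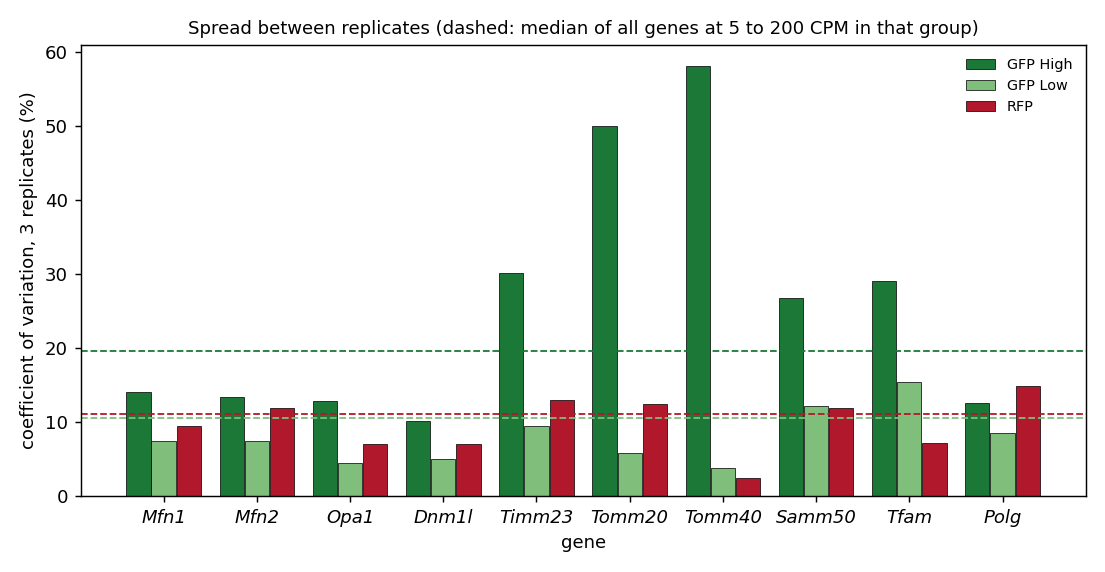
Coefficient of variation between 3 replicates for each gene and group, with dashed lines for the median of the 8130 genes at 5 to 200 CPM. GFP High bars are tallest for 9 of the 10 genes, reaching 58.1% for Tomm40.

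**Figure D5:**
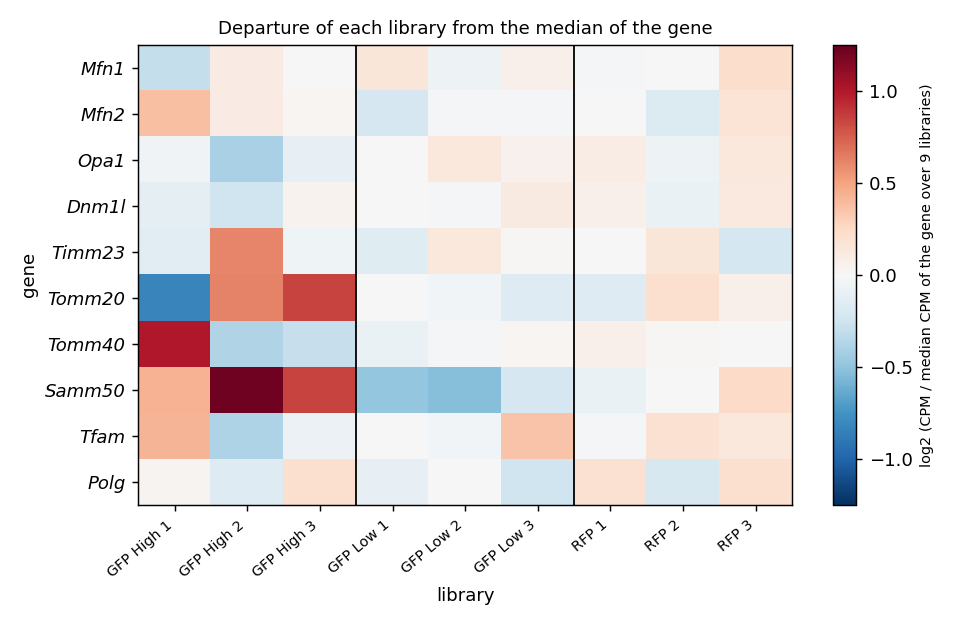
Log2 ratio of the CPM of each library (columns) to the median of that gene over 9 libraries (rows are genes), red above and blue below. Tomm40 and Tomm20 in GFP High 1 move in opposite directions, and Samm50 is above its median in all 3 GFP High libraries and below it in all 3 GFP Low libraries.

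The surrounding pathways were read from 11 lists of 134 nuclear genes, 131 of them in the tables and 112 with 3 counts or more in every library. Of the list genes tested, 0 of 121 were called by edgeR in GFP High against RFP, 0 of 121 in GFP Low against RFP and 0 of 119 between GFP High and GFP Low. The shares with an unadjusted p under 0.05 were 5.79% (7 genes), 2.48% (3) and 3.36% (4), beside 4.09%, 2.62% and 3.77% of all genes. Groups did not overlap for 11.6% (14 genes), 11.6% (14) and 15.1% (18) of the list genes, beside 12.1%, 7.72% and 11.7% of all genes. The medians were 0.04, 0.001 and 0.03 on the log2 scale. Tomm6, Perm1 and Park2 were not analysed here.

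In the fusion list, Parl, a rhomboid protease of the inner membrane, and Afg3l2, a subunit of the inner membrane m-AAA protease, were highest at 56.7 and 39.5 FPKM. Msto1 was lowest at 1.13 FPKM of those detected, meaning 3 counts or more in every library. In CPM Msto1 was at 9.04, 7.01 and 9.22 across GFP High, 3.29, 4.45 and 4.23 across GFP Low and 6.39, 5.67 and 6.05 across RFP. These groups did not overlap and had the order seen for Samm50. The difference of GFP High over GFP Low was 1.09 on the log2 scale (standard error 0.36, edgeR adjusted p = 0.998). In the fission list, March5 (96.9 FPKM), a ubiquitin ligase of the outer membrane, and Mtfr2 (74.05 FPKM) were highest, and Fis1, named after its values were seen, was at 3.32 FPKM.

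For import, Tomm7 and Tomm22, subunits of the TOM complex, were at 51.4 and 24.2 FPKM, far above Tomm20. Tomm22 over Tomm20 was 7.98 to 33.9 within a library. The paralogs Tomm20l and Tomm40l were near 0, with at most 2 and 16 counts in any library, and Polg2, the accessory subunit of the polymerase, had 0 to 18. In the SAM and MICOS list, Dnajc11 (57.8 FPKM) and Apoo (43.1 FPKM) were highest and Samm50 was lowest of those detected. In the same list 2410015M20Rik differed by 0.74 in GFP Low over RFP on the log2 scale (standard error 0.30, edgeR adjusted p = 1.00). In the TIM23 list, Hspa9, the matrix chaperone that pulls proteins in, reached 153 FPKM, and Gfer and Timm8b, of the intermembrane space, 201 and 174 FPKM in theirs. Timm50, the presequence receptor of the TIM23 channel, was at 31.7, 44.2 and 39.2 CPM across GFP High, 21.2, 29.5 and 28.2 across GFP Low and 29.1, 26.7 and 22.3 across RFP. The fitted difference of GFP High over RFP was 0.57 (standard error 0.19, edgeR adjusted p = 0.997), with no overlap of groups.

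Among the remaining lists, Hspe1 (133 FPKM) and Lonp1 (38.8 FPKM), a chaperonin partner and a matrix protease, were highest for processing and quality control, and Mterf4 (28.8 FPKM) and Rnaseh1 (22.6 FPKM) for mtDNA upkeep. Bnip3l (38.1 FPKM) and Optn (35.8 FPKM) were highest for mitophagy. Pink1, the kinase that marks damaged mitochondria, was at 1.34 FPKM and differed by 0.78 in GFP Low over RFP on the log2 scale (standard error 0.28, edgeR adjusted p = 1.00). Of the genes for mtDNA nucleotides, Sucla2 (39.3 FPKM) and Rrm2b (23.6 FPKM) were highest. The lowest detected gene of each remaining list was Slc25a46 (0.562 FPKM) for fission, Tomm70a (1.07) for TOM, Dnajc15 (1.71) for TIM23, Agk (1.62) for TIM22 and small TIM proteins, Xpnpep3 (1.11) for processing, Exog (0.382) for mtDNA upkeep, Slc25a36 (0.183) for nucleotides and Pprc1 (2.74) for regulators. Of the regulators, Gabpb1 (8.98 FPKM) and Nrf1 (8.17 FPKM) were highest. The 13 mRNAs encoded by mtDNA itself were led by mt-Cytb (1003 FPKM) and mt-Nd6 (909 FPKM), and 0 of 13 were called in any comparison. The lowest was mt-Co3, at 6.29 FPKM. The handling of strand and of reads with several matches is not given in the sources used here, so the order of these mRNAs is uncertain.

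A set of 3 motifs known from promoters of nuclear mitochondrial genes was looked for in the 250 bases before each RefSeq start (GRCm38.p6), 13 starts for the 10 genes, on both strands, with overlapping matches counted separately. The NRF1 motif, GCGCA, any 1 base, then GCGC, was found for 2 of the 10 genes, Opa1 and Tomm20, and in 3.7% of 32851 mouse promoters. An ETS motif CCGGAAG was found for 4, Mfn1, Polg, Tfam and Timm23, and in 6.9% of promoters. A GC box GGGCGG was found for 9 and in 32.7%. These gene counts take a match at any start of a gene, while the shares are per promoter. Per promoter, 2, 4 and 10 of the 13 held the NRF1 motif, the ETS motif and the GC box, and Mfn2 held its GC box in 1 of its windows. A match is a description, not a site. Shown are the promoters with an NRF1 match and that of Samm50, the gene whose groups stood apart, with motif matches in capitals. They are chr16:29579084-29579333 (plus strand) for Opa1, chr8:126945922-126946171 (minus strand) for Tomm20 and chr15:84191990-84192239 (plus strand) for Samm50, each 5′ to 3′.
Opa1: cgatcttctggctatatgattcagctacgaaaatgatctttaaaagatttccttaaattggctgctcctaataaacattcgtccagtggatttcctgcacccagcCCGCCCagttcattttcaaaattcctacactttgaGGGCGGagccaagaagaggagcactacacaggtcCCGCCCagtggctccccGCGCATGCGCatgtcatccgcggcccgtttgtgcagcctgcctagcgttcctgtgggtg
Tomm20: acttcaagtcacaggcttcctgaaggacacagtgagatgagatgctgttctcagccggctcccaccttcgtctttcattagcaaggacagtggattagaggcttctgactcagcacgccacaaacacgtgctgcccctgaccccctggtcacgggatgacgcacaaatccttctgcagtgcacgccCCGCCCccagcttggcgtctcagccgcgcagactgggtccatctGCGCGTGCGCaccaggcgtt
Samm50: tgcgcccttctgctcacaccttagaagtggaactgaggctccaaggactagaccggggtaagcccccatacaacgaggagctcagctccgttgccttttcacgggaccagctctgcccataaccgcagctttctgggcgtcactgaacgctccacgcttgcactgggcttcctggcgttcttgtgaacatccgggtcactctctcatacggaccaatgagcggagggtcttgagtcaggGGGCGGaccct
The RefSeq start of Tomm20 lies upstream of the gene start in the deposited tables, so its window does not adjoin that start. Opa1 has an NRF1 match and 3 GC boxes here, Tomm20 an NRF1 match and 1 GC box, and Samm50 1 GC box.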

How the data were processed

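RNA-seq of 9 pools of MII oocytes was used. Reads were handled with fastp, HISAT2 2.0.5, featureCounts 1.5.0-p3 and DESeq2 1.20.0 on mm10, per the submitters' processing notes, which give no role or order. For every pair of groups the authors deposited a table of raw count, normalised signal and FPKM per gene in 6 libraries, and a deposited p-value and log2 fold change per gene. The deposited counts were joined into a matrix of 30153 genes, with 178 genes set to 0 in libraries whose table lacks them. The deposited FPKM served only to compare genes, and the deposited signal was not used.

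Each pair of groups was fitted to the counts of its 6 libraries with edgeR 4.0.16 under R 4.3.3 (filterByExpr, TMM, quasi-likelihood test, no covariate). P-values were adjusted by Benjamini-Hochberg over all genes tested, with a threshold of 0.05. CPM were scaled by TMM over 9 libraries. Alternatives used DESeq2 1.42.0, limma-voom 3.58.1, other scaling, no filter, a replicate block and each library left out. Totals of 19381677 to 27746256 and a lowest count of 106 for any of the 10 genes set the counting precision, and replicates differed by more than sampling noise (chi-square per degree of freedom 13.8 to 57.6). Near-identical copies were found with BLAST 2.17.0. Promoter sequences are from RefSeq (GRCm38.p6), and all 10 genes had an entry by symbol. The Tomm20 entry starts upstream of the gene in the deposited tables. Also apart from the gene, on its upstream side, are a Dnm1l window (chr16:16359032-16359281) and the Mfn2 window with the GC box (chr4:147904910-147905159). The other Dnm1l window (chr16:16358576-16358825) lies inside the gene. The Tfam window (chr10:71238045-71238294) lies mostly inside its gene, which ends at 71238280. That of Polg (chr7:79466274-79466523) lies partly inside its gene, which ends at 79466362. The ETS matches of Tfam and Polg are thus inside the annotated genes. Windows of Mfn1, Timm23 and Tomm40 and the other Mfn2 windows reach into their genes by fewer bases.

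The 10 genes, the lists and the rule for named genes were chosen with earlier results of these data known. Named besides the 10 were, per comparison, the 2 list genes with the smallest p, the 2 highest and the lowest detected gene of each list, paralogs and genes that could share reads. Mff, Twnk and Fis1 were added after their values were seen.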

Additional observations from a re-analysis of the deposited data

Results flagged for a closer look

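Samm50 and Msto1 were singled out because GFP High and GFP Low lay on opposite sides of RFP in every library. For Samm50, GFP High over GFP Low was 1.28 on the log2 scale, and for Msto1 it was 1.09. The pattern of both groups against RFP was not tested. The direct comparison of GFP High with GFP Low gave an edgeR adjusted p of 0.998 for both. Of 12805 genes at 1 CPM or more on average, 22 (0.172%) showed such opposite sides. With 3 libraries a group, no library was tested for standing apart from its group.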

How the results depend on the processing

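The count of genes called moved with the setting, while 0 of the 10 genes were called in any of them. GFP High against RFP gave 2 calls, 12 with DESeq2, 1 with limma-voom, 16 with no filter on low counts and 0 to 2 with 1 library left out, with 0 when GFP High 1 or 3, or RFP 2 or 3, was absent. GFP Low against RFP gave 3, then 10, 1, 34 and 2 to 3 for the same settings. GFP High against GFP Low gave 0, 4 with DESeq2, 16 with no filter and 0 to 1 with 1 library left out, with 1 without GFP High 3. Bias-adjusted deviances in edgeR, an alternative chosen after seeing the data, gave 2, 2 and 0. Of 240 refits of single genes without leaving out a library, 237 kept their sign. The others were Dnm1l in GFP Low against RFP, at -0.0074 without TMM factors, -0.0058 with no filter and -0.0007 with all 9 libraries in the fit. For GFP High against RFP, leaving out 1 library at a time gave log2 ranges of -0.35 to 0.48 for Tomm40, -0.066 to 0.34 for Timm23, -0.32 to 0.10 for Tfam and -0.15 to 0.053 for Polg. For GFP Low against RFP, leaving out 1 library at a time gave log2 ranges of -0.0597 to 0.0745 for Mfn1, -0.17 to 0.0045 for Mfn2, -0.046 to 0.047 for Opa1, -0.052 to 0.046 for Dnm1l, -0.074 to 0.11 for Timm23 and -0.12 to 0.0901 for Tfam. For GFP High against GFP Low, leaving out 1 library at a time gave log2 ranges of -0.30 to 0.53 for Tomm40, -0.087 to 0.32 for Timm23 and -0.34 to 0.085 for Tfam. The sign changes of Tomm40 came without GFP High 1. The causes were not tested. The GFP High mean of Tomm40 was 24.1 CPM and 16.0 without GFP High 1. Leaving out 1 library can move a mean of 3 by less than 1 SD only, so the levels had no such check. The depth left at least 106 counts for each of the 10 genes in every library.

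Replicate numbers are shared between groups, and 3 libraries a group are too few to settle whether they pair the libraries. The correlation of deviations of same-numbered libraries was -0.12 to 0.06 for GFP High and RFP, -0.15 to 0.15 for GFP Low and RFP and -0.09 to 0.15 for GFP High and GFP Low. For libraries of different numbers it was -0.14 to 0.18, -0.24 to 0.23 and -0.22 to 0.13, in the same order. In these comparisons 1, 3 and 3 of 6 libraries correlated best with their own number. The fit with the replicate number as a block called 4, 3 and 0 genes and 0 of the 10.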
